A study of Mus musculus with 6 samples.

Results

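The 10 genes described here write, copy and remove methyl groups on cytosine in mouse DNA, or shield them from removal. They were taken by name from the symbols of a table of 55364 genes, and all 10 were present and passed the filter that left 17353 genes for testing. *Dnmt1* and *Uhrf1* maintain methylation, *Dnmt3a*, *Dnmt3b* and *Dnmt3l* establish it, and *Tet1*, *Tet2*, *Tet3* and *Tdg* remove it. *Dppa3* guards the maternal genome against its removal by TET3.

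RNA-seq was performed on morulae from BDF1 x BDF1 crosses, made by in vitro fertilization, cultured in KSOM and injected with siRNA as zygotes. The control KD group received a control siRNA and the *Yy1* KD group a Silencer Select siRNA against *Yy1*, which encodes a zinc finger transcription factor. Each group had 3 libraries, each made from a pool of 10 morulae. Loss of *Yy1* and any effect of this siRNA on other transcripts cannot be told apart. The pools hold the outer and inner cells of the embryo together, so that fewer cells of a type and less RNA per cell cannot be told apart, and p-values measure the spread between pools.

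DNA methylation in mammals lies mainly on cytosines followed by guanine. After replication, UHRF1 binds the half-methylated sites and recruits DNMT1, which copies the mark to the new strand, whereas DNMT3A and DNMT3B methylate unmodified DNA with the help of DNMT3L, a relative without catalytic activity of its own. TET enzymes oxidize 5-methylcytosine stepwise, and the glycosylase TDG excises the more oxidized bases so that repair can put back cytosine. In the early embryo most methylation inherited from the gametes is lost by the blastocyst stage, partly by oxidation, in which TET3 acts on the paternal genome of the zygote, and partly by dilution through replication. DPPA3 (also called STELLA or PGC7) protects the maternal genome from TET3 and keeps UHRF1 from chromatin in the oocyte.

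Levels are given as TPM, which counts read pairs per length of exon, with a total of 1000000 in every library. Between 11793509 and 24417789 read pairs on genes were recovered from the TPM of a library. *Yy1* was at 96.0, 100.2 and 89.8 TPM in control KD and at 8.73, 8.90 and 8.32 TPM in *Yy1* KD morulae, which is 9.07% of the control mean (log2 fold change -3.32, limma adjusted p = 6.71e-05), and all 6 libraries matched their labels. All 10 markers of the morula passed the filter, among them *Pou5f1*, *Nanog* and *Cdx2*. Of 8 markers of cumulus cells, 5 were listed at 0 in every library, and their sum did not exceed 2.42 TPM in any library. The sum of 6 sperm markers did not exceed 2.26 TPM.

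The promoters of the 10 genes were searched for the YY1 consensus GCCATNTT, which reads AANATGGC on the other strand. RefSeq promoters (GRCm38.p6, 250 bases before to 50 bases after a transcription start) were matched for 9 of the 10 genes, which have 16 promoters in all. *Dppa3* had no entry. The single promoters of *Tet1* (chr10:62887275-62887574) and *Tet3* (chr6:83441629-83441928) lie inside these genes. The outermost annotated starts of *Tet1* and *Tet3* (62908996 and 83459084) were not searched, and the start used in morulae is not known from these data. None of the 16 promoters held the consensus on either strand, against 6.05% of all 32851 promoters. The core CCAT or ATGG, which the consensus contains, was present in 10 of the 16 promoters, against 83.1% of all promoters. These 10 belong to 6 of the 9 genes. With 1 letter allowed to differ, an alternative added after the data were seen, 4 of the 16 promoters matched, against 50.9% of all. The 5 windows with such a match are shown because they are the stretches of these promoters nearest to the consensus. They are 30 bases long, written 5′ to 3′ on the strand of the gene, and capitals mark the 8 letters compared.
*Dnmt1*, chr9:20952772-20952801, minus strand, 167 bases before a start: ctgcaacctgcAAGATGCCagcgcgaacag
*Dnmt1*, chr9:20959932-20959961, minus strand, 62 bases before a start: cctgattggaaAGCATGGCccgctctgtgc
*Dnmt3l*, chr10:78042084-78042113, plus strand, 192 bases before a start: gactccaagttGCCATCTGgcttcttaggg
*Dnmt3l*, chr10:78042173-78042202, plus strand, 103 bases before a start: tctgggctgggGTCATGTTgacggatccag
*Uhrf1*, chr17:56303168-56303197, plus strand, 158 bases before a start: gggggaactggGCCTTCTTggtaaagtgag

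Both *Dnmt1* windows resemble AANATGGC, and the *Dnmt3l* and *Uhrf1* windows resemble GCCATNTT. The core is kept only in the *Dnmt1* match 62 bases and the *Dnmt3l* match 192 bases before a start. In the rest, the letter that differs falls within the core. A near match is a description of sequence, not a binding site. The promoters differed in their content of CG pairs. The *Tet2* promoter had 57 CG pairs in 300 bases and more than 99.2% of all promoters by the ratio of observed to expected pairs. The 3 *Dnmt3l* promoters had between 3 and 6 CG pairs, and the *Dnmt1* promoters ranged from 2 to 33.

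In control KD morulae, *Dppa3* was by far the most abundant of the 10 genes. It was the 19th most abundant of all genes listed, with 4539 ± 322 TPM (SD, n = 3 libraries). *Tet2* came next with 120 ± 20.4 TPM, followed by *Dnmt3b* with 64.4 ± 10.8, *Tet1* with 54.8 ± 3.21, *Uhrf1* with 45.6 ± 6.48 and *Dnmt1* with 33.2 ± 2.40 TPM (SD, n = 3). *Dnmt3a* had 25.3 ± 2.59, *Dnmt3l* 18.3 ± 3.21, *Tet3* 6.27 ± 0.637 and *Tdg* 1.40 ± 0.194 TPM. The control KD ranges of *Dnmt3b* and *Tet1*, and those of *Tet1* and *Uhrf1*, overlapped, so that these neighbours were not told apart, whereas the other neighbours in the order did not overlap.

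In *Yy1* KD morulae, *Dnmt3b* and *Tet1* again overlapped, *Tet1* lay above *Uhrf1* without overlap, and *Uhrf1* overlapped *Dnmt1*. TPM divides by the length of all annotated exons together, which is 16642 nt over 18 annotated transcripts for *Dnmt3a* and 892 nt for *Dppa3*. The isoforms of a gene, such as the oocyte and somatic forms of *Dnmt1*, are not separated in these values.

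**Figure D1:**
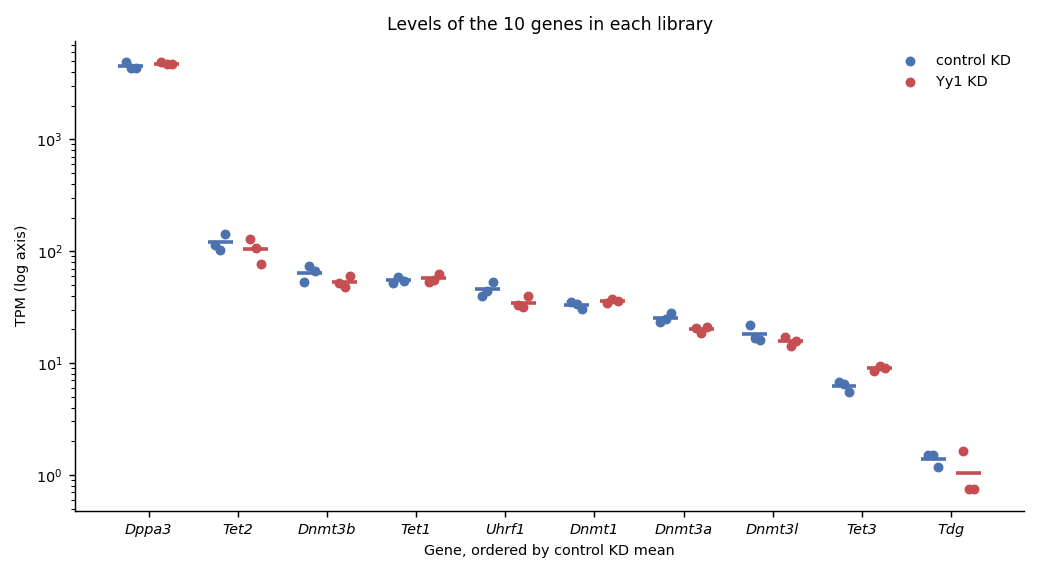
TPM on a log axis of the 10 genes in each library, with control KD libraries in blue, *Yy1* KD libraries in red and a bar at each mean of 3 libraries. *Dppa3* lies far above the rest, *Tdg* is near 1 TPM, and the groups are apart for *Uhrf1*, *Dnmt3a* and *Tet3*.

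Between control KD and *Yy1* KD morulae, none of the 10 genes was called differentially expressed. limma on log2(TPM + 1) gave adjusted p-values between 0.112 for *Tet3* and 0.749 for *Tet1*, while 6.11% of all genes tested were called, 4.20% with lower and 1.92% with higher levels in *Yy1* KD morulae (728 and 333 genes; 548 and 388 with quantile normalization). At an unadjusted p under 0.05, 3 of the 10 genes passed, namely *Tet3*, *Uhrf1* and *Dnmt3a*, against 23.8% of all genes. The same 3 genes had control KD and *Yy1* KD values that did not overlap, which was the case for 30.1% of all genes tested. Fold changes on the log2 scale were negative for 6 genes and positive for 4, with a median of -0.21 beside -0.02 over all genes. Shares of this size among 10 genes are near those of the whole table.

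On the recovered read pairs, limma-voom called 1 of the 10 genes, *Tet3*, and 12.4% of all genes tested. At an unadjusted p under 0.05 by limma-voom, 3 of the 10 genes passed, against 26.3% of all genes.

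**Figure D2:**
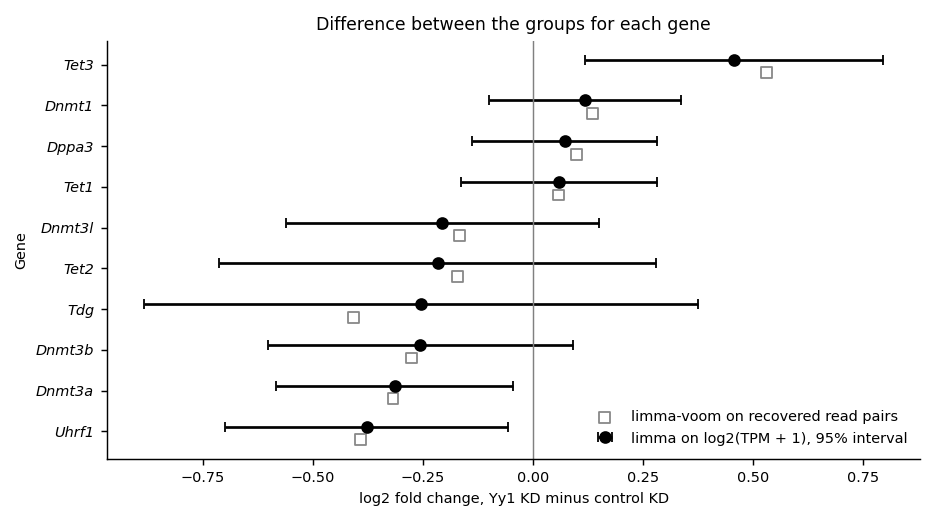
log2 fold change (*Yy1* KD minus control KD) of each gene from limma on log2(TPM + 1), with its unadjusted 95% interval (black), and from limma-voom on recovered read pairs (grey squares). The intervals of *Tet3* (above 0), *Dnmt3a* and *Uhrf1* (below 0) do not reach 0, and that of *Tdg* is the widest.

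*Uhrf1* (chromosome 17, 56303321 to 56323486), the reader of half-methylated sites, had the lowest log2 fold change of the 10 on log2(TPM + 1). By limma-voom, *Tdg* was lower (-0.41, against -0.39 for *Uhrf1*). *Uhrf1* was at 39.8, 44.3 and 52.6 TPM in control KD and at 32.7, 32.0 and 39.6 TPM in *Yy1* KD morulae. The highest *Yy1* KD library, replicate 3, lay just under the lowest control KD library, replicate 1. The log2 fold change was -0.38 (standard error 0.14, 95% interval -0.70 to -0.06, limma adjusted p = 0.151), and the *Yy1* KD mean was 76.3% of the control. A processed pseudogene, *Gm5648*, matches its transcript over 1590 nt at 98.3% identity and was at 1.40 TPM or less in every library. With *Gm5648* added, a sum chosen after the data were seen, the groups overlapped, with 39.95 TPM in the lowest control KD and 41.0 TPM in the highest *Yy1* KD library.

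*Dnmt1* (chromosome 9, 20907209 to 20959888), the maintenance methyltransferase that UHRF1 recruits, was at 35.1, 34.0 and 30.5 TPM in control KD and at 34.7, 37.4 and 36.2 TPM in *Yy1* KD morulae. The groups overlapped. The log2 fold change was 0.12 (95% interval -0.10 to 0.34, limma adjusted p = 0.488), so that the interval covers 0.934-fold to 1.26-fold, and it was 0.06 without control KD replicate 3. Its spread was among the smallest of the 10 genes, with a coefficient of variation of 7.23% in control KD and 3.68% in *Yy1* KD libraries.

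Among the de novo methylation genes, all 3 had negative log2 fold changes and none was called. *Dnmt3a* (chromosome 12, 3806007 to 3914443) was at 23.1, 24.6 and 28.1 TPM in control KD and at 20.5, 18.6 and 21.1 TPM in *Yy1* KD morulae. Every *Yy1* KD value lay below every control KD value. Its log2 fold change was -0.31 (standard error 0.11, 95% interval -0.58 to -0.04, limma adjusted p = 0.153), and the limma-voom adjusted p was 0.0502, the lowest over its 14 alternatives, in which it ranged up to 0.349. *Dnmt3a* shares 133 nt of exonic sequence with its antisense gene *Dnmt3aos*, and pairs were assigned without regard to strand.

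*Dnmt3b* (chromosome 2, 153649450 to 153687730), the second de novo enzyme, was at 52.8, 74.3 and 66.1 TPM in control KD and at 52.2, 48.2 and 60.1 TPM in *Yy1* KD morulae. Replicate 1 of the control KD group lay within the *Yy1* KD range, and the other control libraries lay above it. Its log2 fold change was -0.26 (95% interval -0.60 to 0.09, limma adjusted p = 0.342), and was -0.15 without control KD replicate 2 and -0.39 without control KD replicate 1. *Dnmt3l* (chromosome 10, 78041947 to 78063622), the cofactor, was at 22.0, 16.9 and 16.1 TPM in control KD and at 16.9, 14.1 and 15.8 TPM in *Yy1* KD morulae. Its log2 fold change of -0.21 (95% interval -0.56 to 0.15, limma adjusted p = 0.459) was -0.07 without control KD replicate 1, the library with the highest value. *Dnmt3l* overlaps *Aire* over 67 nt of exonic sequence.

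None of the 3 *Tet* genes, which encode the oxidizing enzymes, was called by limma. *Tet3* (chromosome 6, 83362373 to 83459084), the enzyme best known from the zygote, was at 6.76, 6.50 and 5.55 TPM in control KD and at 8.43, 9.43 and 9.02 TPM in *Yy1* KD morulae. All 3 *Yy1* KD libraries were above all 3 control KD libraries. On log2(TPM + 1) the fold change was 0.46 (standard error 0.14, 95% interval 0.12 to 0.80, limma adjusted p = 0.112), and the ratio of the means was 1.43. On between 584 and 1120 recovered read pairs per library, limma-voom gave 0.53 (standard error 0.12, limma-voom adjusted p = 0.0156). Over all 14 alternatives the adjusted p of *Tet3* lay between 0.0156 and 0.263, and limma-voom was the only 1 of these that called it. The genes with the most similar profile over the 6 libraries, by the root mean square difference of centred log2(TPM + 1), were *Zfand2a* (0.0265) and *Ccna2* (0.0377).

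*Tet1* (chromosome 10, 62804570 to 62908996), the main TET gene of pluripotent cells together with *Tet2*, was at 52.0, 58.3 and 54.2 TPM in control KD and at 53.3, 55.7 and 62.7 TPM in *Yy1* KD morulae. The ranges overlapped, and the 95% interval of the log2 fold change (0.06, limma adjusted p = 0.749) ran from -0.16 to 0.28. *Tet2* (chromosome 3, 133463679 to 133545139) was at 113, 104 and 143 TPM in control KD and at 129.6, 107.5 and 76.3 TPM in *Yy1* KD morulae. It varied within groups by more than *Tet1*, with a coefficient of variation of 17.0% and 25.6%, and 1 library, *Yy1* KD replicate 3, was below all others. For *Tet2* the log2 fold change was -0.22 (95% interval -0.71 to 0.28, limma adjusted p = 0.580) and was -0.01 without that library. *Tet2* shares 43 nt of exonic sequence with *Gm42567*.

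*Tdg* (chromosome 10, 82629828 to 82650799), which encodes the glycosylase, was near the filter, at 1.51, 1.50 and 1.17 TPM in control KD and at 1.63, 0.744 and 0.751 TPM in *Yy1* KD morulae. These values rest on 20 to 83.5 recovered read pairs per library, and the highest *Yy1* KD library exceeded all controls. With so few pairs, the log2 fold change was -0.25 (95% interval -0.88 to 0.38, limma adjusted p = 0.613), and leaving out a *Yy1* KD library gave between -0.45 (without replicate 1) and -0.15 (without replicate 2). The transcript of *Tdg* has 4 processed pseudogenes that match it at 95% identity or more over at least 150 nt, up to 2968 nt in *Tdg-ps*. Read pairs that fit several of these loci equally well cannot be placed, so that the level of *Tdg* is uncertain. Of these copies, *Gm9855* had the highest value in any library, 1.62 TPM in *Yy1* KD replicate 1, and *AC122846.1* was listed at 0 throughout. *Tdg* also shares 367 nt of exonic sequence with *Glt8d2*.

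*Dppa3* (chromosome 6, 122626410 to 122630272), whose protein shields the maternal genome from TET3 and keeps UHRF1 from chromatin, had the narrowest interval of the 10 genes. It was at 4909, 4329 and 4379 TPM in control KD and at 4876, 4713 and 4704 TPM in *Yy1* KD morulae. The *Yy1* KD values lay within the control KD range. The log2 fold change was 0.07 (standard error 0.09, limma adjusted p = 0.673), and its 95% interval of -0.14 to 0.28 covers 0.909-fold to 1.22-fold. With quantile normalization it was 0.28, and without control KD replicate 1 it was 0.13. The processed pseudogene *Dppa3-ps*, which matches the *Dppa3* transcript over 451 nt at 98.2% identity, was at 30.4, 44.7 and 31.5 TPM in control KD and at 31.5, 34.7 and 135 TPM in *Yy1* KD morulae. Replicate 3 of the *Yy1* KD group thus stood apart for *Dppa3-ps*, but not for *Dppa3*.

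Ratios of genes within a library do not depend on how that library was scaled, and 7 were compared. In 2 of them, the groups did not overlap, beside 30.1% of single genes tested. These 2 contain *Uhrf1* and *Tet3*, whose own values did not overlap, so they are not separate from the results of those genes. The ratio of *Uhrf1* to *Dnmt1* was 1.13, 1.30 and 1.72 in control KD and 0.943, 0.856 and 1.09 in *Yy1* KD morulae (two-sided exact permutation test, p = 0.1, adjusted p = 0.35 over the 7 ratios). In TPM, *Uhrf1* RNA was thus above *Dnmt1* RNA in all 3 control pools and in 1 of 3 *Yy1* KD pools. That order rests on the exon lengths by which TPM divides. The difference of the mean ratios, -0.42, was -0.25 without control KD replicate 3. The share of *Tet3* in the summed TPM of the *Tet* genes was 3.93%, 3.86% and 2.74% in control KD and 4.41%, 5.46% and 6.09% in *Yy1* KD morulae (exact permutation test, p = 0.1, adjusted p = 0.35). A p of 0.1 is the smallest that 3 libraries against 3 allow.

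In the other 5 ratios the groups overlapped. *Dnmt3b* exceeded *Dnmt3a* in every library, by 2.55 ± 0.403 times in control KD and 2.66 ± 0.163 times in *Yy1* KD morulae (SD, n = 3; exact permutation test, p = 0.6). *Dnmt3l* amounted to 0.210 ± 0.0687 and 0.213 ± 0.0190 of the sum of *Dnmt3a* and *Dnmt3b* (exact permutation test, p = 1). *Dppa3* was 101 ± 20.2 times as abundant as *Uhrf1* in control KD and 138 ± 17.0 times in *Yy1* KD morulae (exact permutation test, p = 0.2, adjusted p = 0.467). *Tet2* made up most of the *Tet* sum in each library, 66.0% ± 4.49 and 60.5% ± 8.24 (SD, n = 3; exact permutation test, p = 0.5), and *Tet1* 30.5% ± 3.94 and 34.2% ± 7.44 (p = 0.6 in the same exact test).

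**Figure D3:**
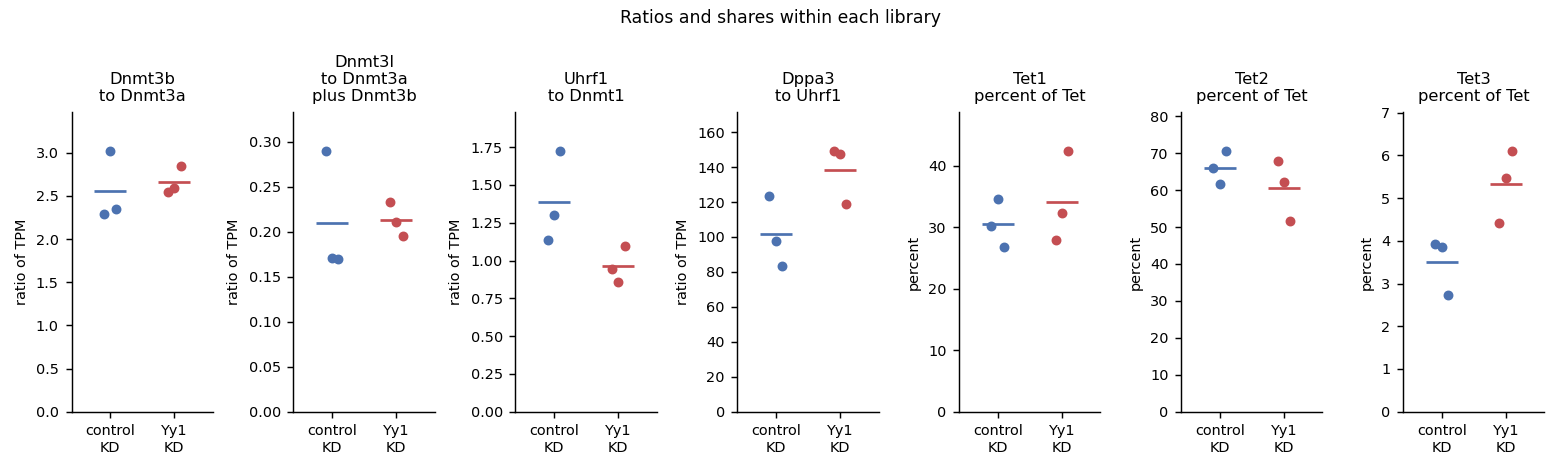
Ratios of TPM, and percent of the summed TPM of *Tet1*, *Tet2* and *Tet3*, within each library, with control KD in blue, *Yy1* KD in red, bars at the means of 3 libraries and axes from 0. The groups do not overlap for *Uhrf1* to *Dnmt1* and for the *Tet3* share, and they overlap for the other 5.

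The rest of the pathway was described by 10 lists of 78 symbols, of which *Paf15* had no entry and 61 were tested. limma called 4 of them (6.56%, against 6.11% of all genes tested), 1 with a higher and 3 with lower levels in *Yy1* KD morulae. Their log2 fold changes had a median of 0.10 beside -0.02 over all genes, with 38 positive and 23 negative (8186 and 9167 over all genes). Of the 61 genes, 21 had an unadjusted p under 0.05, against 23.8% of all genes. By limma, 7 of the 10 lists had no call. They were methyl-CpG readers (5 tested, 0 with an unadjusted p under 0.05), partners of maintenance methylation (6 tested, 1), S-adenosylmethionine supply (7 tested, 2), 2-oxoglutarate supply (6 tested, 3), cytosine deaminases (1 tested, 0), the tRNA methyltransferase *Trdmt1* (0) and germline genes (12 tested, 4). limma-voom, which tested 60 of these genes, called 10 of them, 5 in each direction, against 12.4% of all genes. They were the 4 genes called by limma and *Gadd45g*, *Ahcyl1*, *Ddx4* and *Hormad1* (higher) and *Ogt* and *Parp1* (lower).

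Of the genes that protect methylation at imprints, limma called 2 of 7, both with lower levels, and limma-voom called the same genes. Over all genes, limma called 6.11% and limma-voom 12.4%. At an unadjusted p under 0.05 by limma, 2 of the 7 passed, against 23.8% of all genes. *Zfp445*, a zinc finger protein that binds imprinting control regions, was downregulated from 44.7, 40.4 and 49.3 TPM to 27.0, 24.3 and 27.5 TPM (log2 fold change -0.75, standard error 0.11, limma adjusted p = 0.0162). *Zfp57*, which acts at the same regions, was at 13.8, 9.52 and 13.1 TPM in control KD and at 13.8, 12.9 and 14.3 TPM in *Yy1* KD morulae and was not called (limma adjusted p = 0.559). *Cbx5*, which encodes the heterochromatin protein HP1 alpha, was at 74.5, 69.8 and 73.3 TPM in control KD and at 59.1, 58.0 and 55.0 TPM in *Yy1* KD morulae (log2 fold change -0.33, standard error 0.07, limma adjusted p = 0.0485). The list's median was 0.05. The call of *Zfp445* was lost without control KD replicate 1, control KD replicate 3 or *Yy1* KD replicate 2 (limma adjusted p = 0.0632, 0.0645 and 0.0604), and that of *Cbx5* in each of the 6 fits that left out a library and in 6 of the 8 other alternatives, with an adjusted p of up to 0.143.

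Of the base excision repair genes, which include other glycosylases, limma called 1 of 9 and limma-voom 2 (6.11% and 12.4% of all genes). At an unadjusted p under 0.05 by limma, 4 of the 9 passed, against 23.8% of all genes. *Polb*, the DNA polymerase that fills the gap left by base excision, was downregulated from 35.5, 30.9 and 33.8 TPM to 18.6, 20.4 and 19.8 TPM (log2 fold change -0.74, standard error 0.10, limma adjusted p = 0.0134). Without control KD replicate 1 or replicate 3, its adjusted p was 0.0591 or 0.0637. *Parp1*, which senses the broken strand, was at 257, 258 and 266 TPM in control KD and at 215, 222 and 221 TPM in *Yy1* KD morulae (limma adjusted p = 0.0607, limma-voom adjusted p = 0.0276). The rest of the 4 were the glycosylase genes *Neil1*, lower in *Yy1* KD morulae, and *Nthl1*, higher, both without overlap. Their log2 fold changes were -0.73 and 0.39 (limma adjusted p = 0.116 and 0.155). *Apex1* and *Xrcc1*, which cut and scaffold at the same lesion, had log2 fold changes of 0.01 and 0.03 (limma adjusted p = 0.966 and 0.844).

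Of the partners of TET enzymes, limma called 1 of 7 and limma-voom 3 (6.11% and 12.4% of all genes). At an unadjusted p under 0.05 by limma, 5 of the 7 passed, against 23.8% of all genes. *Gadd45b*, a stress-induced gene linked to active demethylation, was upregulated from 8.997, 7.80 and 4.72 TPM to 20.6, 15.0 and 22.5 TPM (log2 fold change 1.34, standard error 0.25, limma adjusted p = 0.0334). Its call was lost in each of the 6 fits that left out a library and in 3 of the 8 other alternatives, with log2 fold changes between 1.10 and 1.50 and an adjusted p of up to 0.0897. Its relatives *Gadd45a* and *Gadd45g* had log2 fold changes of 0.81 and 1.46 (limma adjusted p = 0.172 and 0.0783), and limma-voom called *Gadd45g* (limma-voom adjusted p = 0.0163). *Ogt*, the sugar transferase that binds TET proteins, was at 46.3, 36.9 and 54.1 TPM in control KD and at 34.8, 24.2 and 33.9 TPM in *Yy1* KD morulae (limma adjusted p = 0.139, limma-voom adjusted p = 0.0448). *Prdm14* was at 6.33, 4.08 and 3.40 TPM in control KD and at 0.655, 2.48 and 2.28 TPM in *Yy1* KD morulae. Its log2 fold change was -1.04 (limma adjusted p = 0.140, limma-voom adjusted p = 0.0526).

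Of 12 tested germline genes whose promoters are known to be silenced by DNA methylation, limma called 0 and limma-voom 2 (6.11% and 12.4% of all genes). At an unadjusted p under 0.05 by limma, 4 of the 12 passed, against 23.8% of all genes. The median of their log2 fold changes was 0.23 beside -0.02 over all genes, with 7 positive and 5 negative (8186 and 9167 over all genes). *Hormad1*, which encodes a protein of meiotic chromosomes, had the lowest adjusted p, with 8.49, 4.90 and 4.65 TPM in control KD and 16.3, 14.8 and 10.9 TPM in *Yy1* KD morulae (log2 fold change 1.12, limma adjusted p = 0.0504, limma-voom adjusted p = 0.0085). *Ddx4*, an RNA helicase of germ cells, was at 10.8, 6.91 and 5.83 TPM in control KD and at 17.3, 18.5 and 11.5 TPM in *Yy1* KD morulae (log2 fold change 0.94, limma adjusted p = 0.0892, limma-voom adjusted p = 0.0127). *Dazl*, an RNA-binding protein of germ cells, was at 5.69, 1.62 and 2.25 TPM in control KD and at 2.60, 1.81 and 3.01 TPM in *Yy1* KD morulae. The rest of the 4 genes with an unadjusted p under 0.05 were *Dpep3* and *Sycp1*, both lower in *Yy1* KD morulae without overlap. Their log2 fold changes were -0.53 and -0.34 (limma adjusted p = 0.160 and 0.172). *Hormad1*, *Ddx4*, *Dpep3*, *Sycp1* and *Dazl*, like *Zfp57*, *Parp1*, *Neil1*, *Nthl1*, *Ahcyl1*, *Apex1*, *Xrcc1*, *Ogt*, *Prdm14*, *Gadd45a* and *Gadd45g*, were chosen after their values were seen.

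**Figure D4:**
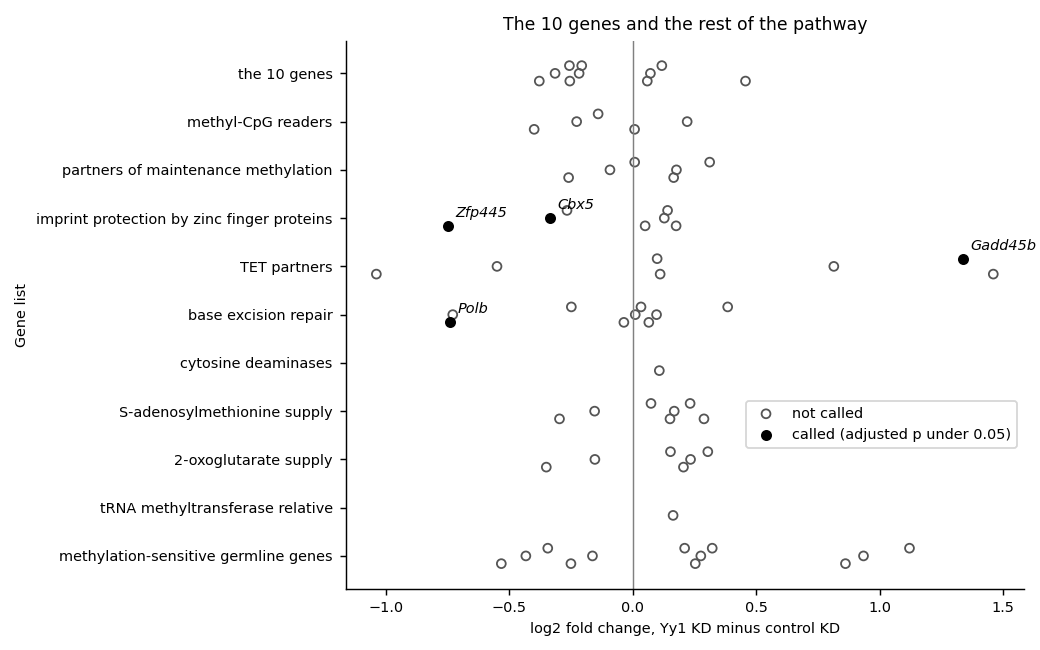
log2 fold change (*Yy1* KD minus control KD) of each tested gene in the 10 lists of the pathway and of the 10 genes themselves, with filled points for genes called by limma. The 4 filled points are *Zfp445*, *Cbx5*, *Polb* and *Gadd45b*, and no point of the top row is filled.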

How the data were processed

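RNA-seq was performed on 3 control KD and 3 *Yy1* KD libraries, grouped by their labels. The authors trimmed the reads with Trim Galore (0.6.7), aligned them to mm10 with HISAT2 (2.2.1), removed ribosomal RNA reads with bedtools, counted pairs on GENCODE vM25 genes with featureCounts (2.0.1, strand ignored, shared pairs divided) and deposited TPM, which keeps no depth and is not suited to their edgeR test on counts.

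Genes that reached 1 TPM in 3 or more libraries were tested with limma (3.58.1, R 4.3.3) on log2(TPM + 1), which understates changes of low genes, with a variance trend, two-sided, Benjamini-Hochberg adjusted over 17353 genes and called at an adjusted p under 0.05. The method was checked on simulated data. Intervals are 95% intervals from limma without adjustment. Single values were compared by exact permutation tests. Read pairs were recovered from TPM and the exon lengths of GENCODE vM21 (GRCm38, the assembly of mm10), which has the same version of 98.1% of the genes. It also gave the coordinates. For values under 20 pairs of genes without exonic overlap, between 89.0% and 90.9% lay within 0.02 of a whole number. limma-voom was run on the rounded pairs.

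Transcripts were compared by BLAST (at least 150 nt at 95% identity). Named genes are the 10 genes, *Yy1*, called genes of the lists, and the 2 tested genes (mean of 10 TPM or more, no clone or predicted name) with the profile closest to the member with the lowest p. The 10 genes and the lists were chosen with earlier results of these data known. Alternatives were another pseudocount, filter, scaling, variance model or test, a replicate block, and each library left out. No per-sample column was left out.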

Additional observations from a re-analysis of the deposited data

How the results depend on the processing

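The log2 fold changes of the 10 genes kept their sign in all alternatives but 1, since *Tet1* was at -0.0070 without *Yy1* KD replicate 3 (up to 0.109 without another library), and limma-voom alone called a member (1, *Tet3*, higher). Over all genes, 77 higher and 270 lower genes were called without a filter, 132 and 382 without a variance trend, 808 and 1283 by limma-voom, and 23 to 81 and 50 to 335 when a library was left out, where fewer libraries enter the fit. Among the pathway lists, 2 higher genes were called with a mean TPM of at least 5, with median-ratio scaling and with quantile normalization, 0 without a filter or a variance trend and in every fit without a library, and 5 by limma-voom. Lower pathway genes numbered 5 by limma-voom and 0 to 2 without a library. Where no value shows the cause of such a shift, the cause was not tested.

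With a replicate block, 69 higher and 218 lower genes and 1 lower pathway gene were called. Replicate numbers are shared across groups only as numbers, and the deviations of libraries with the same number correlated by -0.004, 0.03 and 0.07, with control KD replicate 1 closest to *Yy1* KD replicate 2. The block changed no call of the 10 genes, and the calls of *Polb*, *Cbx5*, *Gadd45b* and *Khdc3* were lost under it.

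When a library was left out, the difference in the ratio of *Dnmt3b* to *Dnmt3a* lay between -0.0264 and 0.337, that of *Dnmt3l* to *Dnmt3a* plus *Dnmt3b* between -0.0171 and 0.0426, that of *Uhrf1* to *Dnmt1* between -0.549 and -0.254, and that of the *Tet1* share between -0.467 and 6.79 percentage points. *Tdg* was not tested with a mean TPM of at least 5. The YY1 core was present in promoters of 6 genes, against 0 for the consensus. Counts are lowest in *Tdg*, whose depth allows the least.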

Other observations

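Markers that describe the embryos beside the 10 genes were also listed. Of 10 morula markers, limma called 1 (6.11% of all genes) and limma-voom 2 (12.4% of all genes), and 9 had negative log2 fold changes, beside 52.8% of all genes. Their summed TPM was between 2141 and 2442 in control KD and between 1856 and 2058 in *Yy1* KD libraries. *Tfap2c*, a transcription factor of the early embryo and the trophectoderm, was downregulated from 192, 179 and 180 TPM to 135, 116 and 125 TPM (log2 fold change -0.54, standard error 0.08, limma adjusted p = 0.0174). It kept its call in 1 of the 6 fits that left out a library, with an adjusted p of up to 0.0659. *Cdh1*, the adhesion protein of compaction, was at 210, 141 and 244 TPM in control KD and at 84.5, 109 and 149 TPM in *Yy1* KD morulae (limma adjusted p = 0.125, limma-voom adjusted p = 0.0295). *Cdx2*, the trophectoderm factor, was at 56.1, 61.6 and 65.0 TPM in control KD and at 69.3, 57.1 and 57.0 TPM in *Yy1* KD morulae (limma adjusted p = 0.995). *Sox2* had the lowest log2 fold change of the list, -0.86 (limma adjusted p = 0.0942, limma-voom adjusted p = 0.0522). It was at 8.73, 9.93 and 14.3 TPM in control KD and at 7.03, 5.75 and 4.02 TPM in *Yy1* KD morulae, without overlap. *Cdh1*, *Cdx2* and *Sox2* were chosen after their values were seen.

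Of 16 genes listed for transcripts stored in the oocyte, among which *Dppa3* and *Tet3* are not counted, limma and limma-voom both called 1 (6.11% and 12.4% of all genes). RNA left from the oocyte and RNA made by the embryo cannot be told apart in these values. *Khdc3*, a member of the subcortical maternal complex, was downregulated from 753, 761 and 821 TPM to 604, 451 and 527 TPM (log2 fold change -0.57, standard error 0.11, limma adjusted p = 0.0388). When each library was left out in turn, *Khdc3* was called in 1 of 6 fits, and its adjusted p reached 0.122. Its control KD mean was 778 TPM, against 32.4 TPM for *Padi6*, the next of the list. The median log2 fold change of the 16 was 0.07, with 10 positive and 6 negative. The summed TPM of the list was between 896 and 939 in control KD and between 620 and 735 in *Yy1* KD libraries, most of it *Khdc3*. Its part in the values of *Dppa3* or *Tet3* was not tested.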
